A study of Mus musculus with 18 samples.

Results

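The 36 genes described here encode the receptors, transporters, synthetic enzymes and scaffolds of glutamate, GABA and glycine synapses, and they were followed as neuronal genes outside their tissue, in fetal male germ cells. They were taken as a given list of symbols, grouped by function and chosen with earlier results of these data known, and all 36 were found among 21883 protein-coding RefSeq genes of the mouse. The list held 7 metabotropic glutamate receptors, 4 AMPA and delta receptor subunits, 7 NMDA receptor subunits, 5 kainate receptor subunits, 3 Shank scaffolds, 3 vesicular glutamate transporters, 4 genes of GABA and glycine synthesis or transport, and 3 GABA or glycine receptor subunits. CUT&RUN, a method that uses an antibody-bound nuclease to release marked chromatin, had mapped H3K4me3, the trimethyl mark on lysine 4 of histone H3. The cells were prospermatogonia, the fetal precursors of spermatogonial stem cells, isolated at E17.5 (embryonic day) through their Oct4-GFP reporter. Tet1-/- (KO) cells, Tet1HxD/HxD (HxD) cells and Tet1+/+ (WT) cells were compared, with 3 H3K4me3 libraries of 4000 nuclei each and the reporter and stage in common. TET1 oxidises 5-methylcytosine, and the HxD allele alters the motif its catalysis depends on, so that HxD cells have a TET1 protein known as catalytically inactive and KO cells were made to lack it.

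H3K4me3 marks the starts of genes that are active or held ready for activation, and CpG-rich starts carry it in most tissues. In neurons, glutamate is loaded into vesicles by the Slc17a transporters and is received by AMPA, kainate and NMDA channels and by G protein-coupled metabotropic receptors, which Shank proteins help to anchor in the postsynaptic density. GABA is made by the glutamate decarboxylases Gad1 and Gad2, and both GABA and glycine are loaded by Slc32a1. Chloride channels built of Gabr subunits receive GABA, and those built of Glr subunits receive glycine. Outside the nervous system many such genes are kept silent by the repressor REST, which binds a long sequence element called RE1, and by Polycomb complexes at CpG-rich starts.

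Promoter sequence was at hand in RefSeq (GRCm38.p6, the assembly of mm10) for 25 of the 36 genes, as 250 bases before to 50 bases after the gene start. The conserved core of RE1 was searched on both strands as CAGCACC, 2 free bases and GGACAG, with at most 1 mismatch at its 13 fixed letters. It was found in 3 of the 25 promoters, 12%, against 42 of 17491 coding promoters, 0.240%. A match is a run of letters and no evidence of binding. The 3 promoters are shown from 5′ to 3′ along the gene with the match in capitals. Its first base lay at position -170 from the start in Gria2, 34 in Slc17a6 and -164 in Gad2.

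Gria2 (chr3:80802786-80803085, minus strand): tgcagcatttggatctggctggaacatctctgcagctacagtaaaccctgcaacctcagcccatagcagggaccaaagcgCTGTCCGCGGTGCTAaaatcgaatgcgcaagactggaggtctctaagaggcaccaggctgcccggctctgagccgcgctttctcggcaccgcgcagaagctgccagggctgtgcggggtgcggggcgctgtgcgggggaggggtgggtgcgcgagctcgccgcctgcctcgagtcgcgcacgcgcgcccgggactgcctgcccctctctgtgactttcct
Slc17a6 (chr7:51621580-51621879, plus strand): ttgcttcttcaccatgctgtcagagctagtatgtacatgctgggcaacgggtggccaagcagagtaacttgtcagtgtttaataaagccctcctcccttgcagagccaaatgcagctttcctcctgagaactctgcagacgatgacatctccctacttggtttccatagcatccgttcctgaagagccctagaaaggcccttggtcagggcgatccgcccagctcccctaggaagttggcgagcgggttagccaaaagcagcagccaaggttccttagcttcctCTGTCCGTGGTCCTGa
Gad2 (chr2:22622077-22622376, plus strand): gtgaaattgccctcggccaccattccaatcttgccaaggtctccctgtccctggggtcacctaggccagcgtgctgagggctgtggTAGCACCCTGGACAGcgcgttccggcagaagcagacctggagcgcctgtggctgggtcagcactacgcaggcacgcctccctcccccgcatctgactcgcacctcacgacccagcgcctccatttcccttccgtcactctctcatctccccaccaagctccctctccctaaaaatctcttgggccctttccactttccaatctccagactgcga

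The 25 promoters held a median of 17 CG dinucleotides in 300 bases, between 3 in Grin3b and 50 in Grik3, against a median of 14 over the 17491 coding promoters. Another 4 are shown with each CG in capitals. Grin2c and Grm2 have 22 each and Slc17a8 has 7, and at the starts of these 3 genes no mutant library reached the covered length of any WT library. The same held at the start of Grik2, with 26. At the start of Grik3, with 50, HxD lay below WT without overlap and KO overlapped WT. A relation of CG number to covered length was not tested. Shank3, with 40, stayed covered to a like length in all 9 libraries.

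Grin2c (chr11:115267194-115267493, minus strand): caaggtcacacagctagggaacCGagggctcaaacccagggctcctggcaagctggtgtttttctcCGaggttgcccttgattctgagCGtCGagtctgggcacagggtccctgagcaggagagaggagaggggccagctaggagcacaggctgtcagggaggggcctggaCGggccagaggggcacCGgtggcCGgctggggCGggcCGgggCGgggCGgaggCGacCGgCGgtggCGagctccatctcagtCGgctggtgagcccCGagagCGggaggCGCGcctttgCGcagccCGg
Grm2 (chr9:106656060-106656359, minus strand): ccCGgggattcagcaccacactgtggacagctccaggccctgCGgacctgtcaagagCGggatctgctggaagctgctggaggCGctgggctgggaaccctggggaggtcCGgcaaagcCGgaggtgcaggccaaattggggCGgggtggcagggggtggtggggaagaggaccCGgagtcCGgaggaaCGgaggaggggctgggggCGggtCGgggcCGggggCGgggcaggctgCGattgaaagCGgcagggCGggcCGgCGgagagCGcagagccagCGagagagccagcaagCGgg
Slc17a8 (chr10:89621200-89621499, minus strand): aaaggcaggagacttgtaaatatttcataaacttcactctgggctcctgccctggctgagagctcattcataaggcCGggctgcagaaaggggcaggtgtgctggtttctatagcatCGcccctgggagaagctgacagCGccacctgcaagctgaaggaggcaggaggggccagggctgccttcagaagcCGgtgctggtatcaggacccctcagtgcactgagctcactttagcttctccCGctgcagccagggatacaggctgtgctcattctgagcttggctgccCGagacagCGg
Shank3 (chr15:89499358-89499657, plus strand): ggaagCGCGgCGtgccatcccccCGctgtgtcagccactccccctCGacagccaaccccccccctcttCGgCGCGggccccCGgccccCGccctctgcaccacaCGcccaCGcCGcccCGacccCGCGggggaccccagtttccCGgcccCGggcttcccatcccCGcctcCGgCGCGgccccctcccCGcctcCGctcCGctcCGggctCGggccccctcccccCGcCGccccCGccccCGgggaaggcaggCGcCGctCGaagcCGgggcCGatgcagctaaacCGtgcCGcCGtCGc

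The deposited peak lists held 69901 to 80232 peaks in KO, 49624 to 67925 in HxD and 83586 to 128701 in WT libraries. They covered 50.5 to 73.0 Mb in KO, 45.6 to 69.3 Mb in HxD and 76.6 to 108.9 Mb in WT. Every mutant list was thus shorter than every WT list, with ratios of peak number of 0.721 for KO over WT and 0.584 for HxD over WT (two-sided exact permutation p = 0.1 each, the smallest that 3 libraries against 3 can give). No read counts were analysed here, so the sequencing depth behind each list is unknown. The measurement was the covered length, the number of bases covered by peaks within 5 kb on either side of the marked end of a gene. The marked end was the end of the RefSeq gene with more coverage within 1 kb over all 9 libraries. Over the 15996 coding genes with a peak within 1 kb of that end in at least 3 libraries, the median covered length did not separate the genotypes (means of 1992 bp in KO, 1816 bp in HxD and 1895 bp in WT libraries; exact permutation p = 0.8 and 0.5 against WT). Of 21 germ cell markers, 15 had a peak at the marked end in all 9 libraries, and so did 8 of 12 markers of nerve and glia. The same held for 11 of 15 Sertoli, 7 of 16 Leydig and interstitial, and 6 of 14 endothelial and blood markers. Among all coding genes the share was 59.6%, so these counts do not tell the cell types apart. At the targeted gene, Tet1, the covered length was 2732, 3331 and 4851 bp in KO, 3495, 3260 and 2580 bp in HxD, and 2570, 2415 and 3315 bp in WT libraries, so the mark at its end does not check the genotype labels.

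Most of these synapse genes carried H3K4me3 in prospermatogonia of every genotype. All 36 passed the filter, and 27 of 36 (75%) had a peak within 1 kb of the marked end in all 9 libraries, against 59.6% of all coding genes. Of 72 other genes of glutamate and inhibitory synapses, 60 passed the filter and 45 had such a peak in all 9 libraries. Glra2, Glra4, Gabra6, Gabrp and Lrrtm1 among them had no covered base in any library. Such a peak was present at 29, 34 and 33 of the 36 genes in the KO libraries, at 32, 29 and 32 in the HxD libraries and at 36, 35 and 36 in the WT libraries. The 9 genes with fewer than 9 marked libraries were Grm5, Gria1, Gria2, Grik2, Shank3, Slc17a6, Slc17a8, Slc6a5 and Glra1. Of the 35 genes marked in every WT library, Shank3 and Slc6a5 were marked in no KO library, where 0.926% of coding genes marked in every WT library were so. Slc6a5 was also marked in no HxD library (1.03% of coding genes), and it therefore passed the filter through WT libraries alone. The opposite pattern, a peak in every KO or every HxD library and in no WT library, was found at 0 of the 36 genes (0.128% and 0.092% of coding genes).

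**Figure D1:**
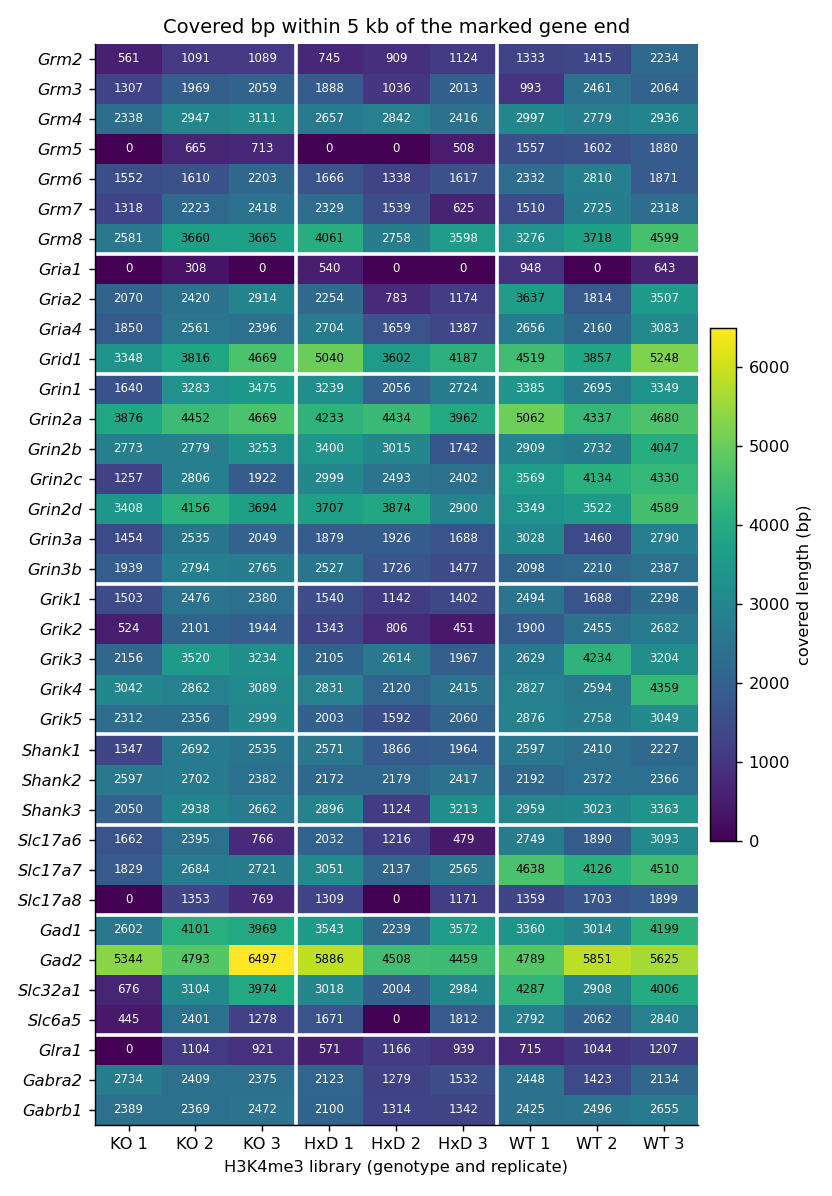
Heat map of covered length (bp within 5 kb of the marked gene end) for the 36 synapse genes, with 1 column per library ordered KO, HxD, WT and white lines between the functional groups. Gad2 was the broadest, at 4459 to 6497 bp. Grm5, Slc17a8, Slc6a5 and Glra1 hold zeros in mutant columns only, and Gria1 holds them in columns of all 3 genotypes.

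The question for each comparison was whether covered length at these genes differed by genotype. In KO against WT, the difference was below 0 at 31 of 36 genes, where 46.7% of all 15996 genes were below 0. The median difference was -362 bp over the 36 genes and 45 bp over all genes. limma called 0 of 36 genes at an adjusted p below 0.05 (0.00625% of all genes were called narrower, a single gene that is no member, and 0% broader). At an unadjusted p below 0.05, 6 of 36 genes (16.7%) were narrower in KO, against 7.45% of all genes, and 0 were broader, against 6.76%. The 6 were Slc17a7, Grin2c, Grm5, Grm2, Slc17a8 and Slc6a5. Since Slc6a5 passed the filter through WT libraries alone, lower mutant values there were built into its admission. Leaving out the 70 genes marked in libraries of 1 genotype only, Slc6a5 among them, 30 of 35 differences were below 0 (46.5% of the other genes) and 5 of 35 genes were narrower at an unadjusted p (7.13%). All 3 KO libraries lay below all 3 WT libraries at 6 genes (9.08% of all genes), the same set with Shank3 in place of Slc6a5, and above them at Shank2 alone (8.49%). Shank3 was marked in 3 WT libraries, 1 HxD library and 0 KO libraries, so its admission also favoured lower KO values. It remains in the counts of 35 genes. Without KO replicate 1, 22 of 36 differences were below 0 (33.6% of all genes) and 3 genes were narrower at an unadjusted p (4.07%). The 6 genes without overlap became 10 without KO replicate 3 (15.6% of all genes), 10 without WT replicate 1 (14.3%) and 14 without WT replicate 2 (16.1%).

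In HxD against WT, the difference was below 0 at 36 of 36 genes, where 61.1% of all genes were below 0, with a median of -695 bp against -125 bp over all genes. limma again called 0 of 36 genes, and 0% of all genes in either direction. At an unadjusted p below 0.05, 13 of 36 genes (36.1%) were narrower in HxD, against 9.04% of all genes, and 0 were broader, against 1.74%. These were Grm5, Slc17a7, Grik2, Grin2c, Gria2, Grik5, Gabrb1, Slc17a6, Slc6a5, Grm2, Grm6, Grik3 and Grik1, or 12 of 35 without Slc6a5 (8.71% of genes marked in more than 1 genotype). All 3 HxD libraries lay below all 3 WT libraries at 12 genes (13.3% of all genes) and above them at 0 (3.62%), and without Slc6a5 they lay below at 11 of 35 (13%). The count of 13 was 7 without HxD replicate 2 (4.34% of all genes), and the count of 12 was 19 without HxD replicate 1 (27.7%) and 21 without WT replicate 2 (23.8%). Both comparisons share the 3 WT libraries, so their values are given side by side and not as independent evidence. With all lists cut to the length of the shortest, 34 of the genes were tested and differences below 0 numbered 21 in KO (31.2% of all genes) and 26 in HxD (38.6% of all genes).

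Other scalings moved some genes past the adjusted threshold. With each library centred on its own mean over all genes, limma called Grin2c, Grm5 and Slc17a7 narrower in KO (3 of 36; 1.76% of all genes) and Grm5 and Slc17a7 narrower in HxD (2 of 36; 0.269%). Differences were then below 0 at 32 of 36 genes in KO (49.4% of all genes) and 34 of 36 in HxD (48.2%). With lists of equal length, limma called Grin2c and Slc17a7 narrower in KO (2 of 34; 0.234% of all genes) and 0 of 34 in HxD (0%), and 0 were called broader in either (2.36% of all genes in KO and 0.013% in HxD). At an unadjusted p in that setting, 4 of 34 genes were narrower in KO (3.39% of all genes) and 4 in HxD (3.2%), while 1 was broader in KO (16.8% of all genes) and 0 in HxD (10.2%). Without overlap, 5 of 34 lay below WT in KO (5.22% of all genes) and 8 in HxD (7.2%). Equal length moved the median difference of all genes to 334 bp in KO and 176 bp in HxD, and that of the synapse genes to -120.3 bp in KO and -492 bp in HxD.

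In KO against HxD, limma called 0 of 36 genes and 0% of all genes. At an unadjusted p below 0.05, Gabrb1, Gabra2 and Grik1 were broader in KO (3 of 36; 2.69% of all genes) and 0 were narrower (0.219%). All KO libraries lay above all HxD libraries at Gabra2, Gabrb1, Grik4 and Grik5 (7.19% of all genes) and below them at 0 (0.706%). The difference was below 0 at 9 of 36 genes, 25% against 28.3% of all genes, and the median was 232 bp against 167 bp over all genes. Single libraries moved these counts. The 3 broader genes became 7 without KO replicate 1 (7.96% of all genes), 1 without KO replicate 2 (1.94%), and 0 without HxD replicate 2 (1.42%) or HxD replicate 3 (0.906%). The 4 genes without overlap became 16 without KO replicate 1 (29% of all genes) and 9 without HxD replicate 1 (21.8%). The 9 differences below 0 became 3 without KO replicate 1 (13.2% of all genes) or HxD replicate 1 (17.8%), and 15 without KO replicate 2 (36.3%) or HxD replicate 2 (37.1%).

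**Figure D2:**
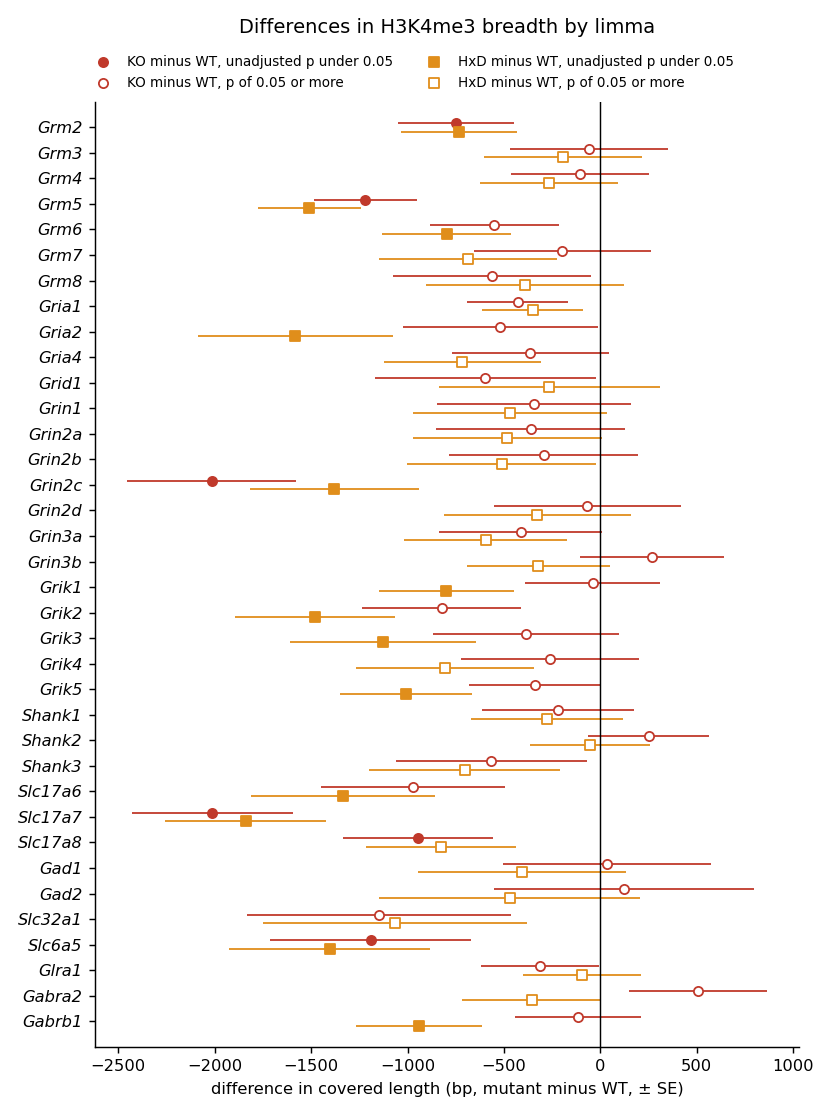
Difference in covered length (bp, mutant minus WT) with its SE from limma for each synapse gene, KO minus WT as circles and HxD minus WT as squares, filled where the unadjusted p was below 0.05. The HxD squares all lie left of 0, and Slc17a7, Grin2c and Grm5 lie farthest to the left among the KO circles. Slc6a5 is drawn as well, although lower mutant values were built into its admission.

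At the 3 vesicular glutamate transporter genes the mean coverage was below that of WT in KO and in HxD, with no adjusted p below 0.05; the libraries overlapped at Slc17a6. Slc17a7, the transporter of cortical excitatory neurons (chromosome 7, 45163921 to 45176139), had 1829, 2684 and 2721 bp in KO, 3051, 2137 and 2565 bp in HxD, and 4638, 4126 and 4510 bp in WT libraries. Every mutant library lay more than 1000 bp below the lowest WT library. The differences were -2013 ± 417 bp for KO (SE; limma adjusted p = 0.0881) and -1840.3 ± 417 bp for HxD (limma adjusted p = 0.129). With centred libraries, Slc17a7 passed the threshold in both (limma adjusted p = 0.00942 in KO and 0.0362 in HxD), as it did in KO without the filter, and over the alternatives the adjusted p ran to 0.794 in KO and 0.870 in HxD. The marked end of Slc17a7 is the far end of the gene, 210 bp from an end of the neighbouring gene Gfy. Slc17a8, a transporter also found in some non-glutamatergic neurons (chromosome 10, 89574020 to 89621249), had 0, 1353 and 769 bp in KO, 1309, 0 and 1171 bp in HxD, and 1359, 1703 and 1899 bp in WT libraries. Neither mutant overlapped WT, by margins of 6 bp in KO and 50 bp in HxD between the nearest libraries. The differences were -946 ± 388 bp for KO (limma adjusted p = 0.291) and -827 ± 388 bp for HxD (limma adjusted p = 0.464). Slc17a6, the main transporter of the brainstem and thalamus (chromosome 7, 51621830 to 51671126), whose start holds an RE1-core match, had 1662, 2395 and 766 bp in KO, 2032, 1216 and 479 bp in HxD, and 2749, 1890 and 3093 bp in WT libraries. Both mutants overlapped WT at this gene, and the difference was -1335 ± 477 bp in HxD (limma adjusted p = 0.327) and -970 ± 477 bp in KO (limma adjusted p = 0.372). With lists of equal length the HxD difference was -253 bp (limma adjusted p = 0.866).

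Among the metabotropic receptors, Grm5 stood apart. Grm5, a postsynaptic receptor that signals through phospholipase C (chromosome 7, 87583981 to 88135063), had 0, 665 and 713 bp in KO, 0, 0 and 508 bp in HxD, and 1557, 1602 and 1880 bp in WT libraries. A single KO list and 2 HxD lists had no peak in the window, and each WT list had 2 peaks there. The differences were -1220.3 ± 267 bp for KO (limma adjusted p = 0.0909) and -1510.3 ± 267 bp for HxD (limma adjusted p = 0.0795). Over the alternatives, the adjusted p of Grm5 ran between 0.0215 and 0.403 in KO and between 0.0330 and 0.483 in HxD, and it passed the threshold in both with centred libraries and without the filter, and in HxD also without KO replicate 1. With lists of equal length the KO difference was -730 bp.

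Grm2, a presynaptic receptor that dampens glutamate release (chromosome 9, 106644534 to 106656109), had 561, 1091 and 1089 bp in KO, 745, 909 and 1124 bp in HxD, and 1333, 1415 and 2234 bp in WT libraries. Neither mutant overlapped WT, with differences of -747 ± 301 bp for KO (limma adjusted p = 0.284) and -735 ± 301 bp for HxD (limma adjusted p = 0.398). The sign of both turned with lists of equal length, to 218 bp for KO (limma adjusted p = 0.710) and 338 bp for HxD (0.650). Grm6, the receptor of retinal ON bipolar cells, had 1552, 1610 and 2203 bp in KO, 1666, 1338 and 1617 bp in HxD, and 2332, 2810 and 1871 bp in WT libraries. HxD lay below WT without overlap at Grm6 (-797 ± 335 bp; limma adjusted p = 0.412), and KO overlapped WT; with lists of equal length the HxD difference was -513 bp. The presynaptic receptors Grm3, Grm4, Grm7 and Grm8 overlapped in every comparison. Of these, Grm8 was the broadest, at 2581 to 3665 bp in KO, 2758 to 4061 bp in HxD and 3276 to 4599 bp in WT libraries.

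Of the NMDA receptor subunits, which form calcium-permeable channels, Grin2c alone met the unadjusted threshold. Grin2c, the subunit of cerebellar granule cells (chromosome 11, 115249169 to 115267297), had 1257, 2806 and 1922 bp in KO, 2999, 2493 and 2402 bp in HxD, and 3569, 4134 and 4330 bp in WT libraries. All 6 mutant libraries lay below the 3 WT libraries. The differences were -2016 ± 439 bp for KO (limma adjusted p = 0.0909) and -1379.7 ± 439 bp for HxD (limma adjusted p = 0.279). In KO, Grin2c passed the threshold with centred libraries (limma adjusted p = 0.00972) and with lists of equal length (0.0394), within a range over the alternatives of 0.00972 to 0.300. An end of the neighbour Fdxr lies 727 bp from the marked end. The obligatory subunit Grin1 had 1640, 3283 and 3475 bp in KO, 3239, 2056 and 2724 bp in HxD, and 3385, 2695 and 3349 bp in WT libraries. These values overlapped between genotypes, as did those of Grin2a, Grin2b, Grin2d, Grin3a and Grin3b. The marked end of Grin1 is its far end, 28010 bp from its start and 16 bp from an end of the neighbour Lrrc26. At its start, Grin1 had 0, 1066 and 868 bp in KO, 554, 0 and 797 bp in HxD, and 1026, 502 and 1279 bp in WT libraries, which overlapped. Grin2a, one of the main subunits of the adult forebrain, was covered over 3876 to 4669 bp in KO, 3962 to 4434 bp in HxD and 4337 to 5062 bp in WT libraries.

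AMPA receptor subunits carry fast excitatory currents, and among them Gria2 met the unadjusted threshold in HxD. Gria2, the subunit that makes these channels impermeable to calcium (chromosome 3, 80681450 to 80804227), had 2070, 2420 and 2914 bp in KO, 2254, 783 and 1174 bp in HxD, and 3637, 1814 and 3507 bp in WT libraries. HxD replicate 1 exceeded WT replicate 2, so the groups overlapped, and the difference was -1582 ± 506 bp in HxD (limma adjusted p = 0.280) and -518 ± 506 bp in KO (limma adjusted p = 0.669). The HxD difference was -847 bp with lists of equal length. Gria1 was the least covered of the 36 genes in WT, with 0, 308 and 0 bp in KO, 540, 0 and 0 bp in HxD, and 948, 0 and 643 bp in WT libraries. Gria4 and the delta subunit Grid1 overlapped in every comparison, Grid1 at 3348 to 4669 bp in KO, 3602 to 5040 bp in HxD and 3857 to 5248 bp in WT libraries.

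The 5 kainate receptor subunits had differences below 0 in both mutants, and 4 of the 5 met the unadjusted threshold in HxD. Grik2, a core channel subunit (chromosome 10, 49093680 to 49790161), had 524, 2101 and 1944 bp in KO, 1343, 806 and 451 bp in HxD, and 1900, 2455 and 2682 bp in WT libraries. The HxD libraries lay below all WT libraries (-1479 ± 414 bp; limma adjusted p = 0.224), and the KO libraries overlapped them (-823 ± 414 bp; limma adjusted p = 0.383). Equal list length brought the HxD difference to -954 bp. Grik5, a high-affinity auxiliary subunit (chromosome 7, 25009849 to 25075694), had 2312, 2356 and 2999 bp in KO, 2003, 1592 and 2060 bp in HxD, and 2876, 2758 and 3049 bp in WT libraries. HxD lay below both other genotypes, by -1009 ± 342 bp against WT (limma adjusted p = 0.300), while KO exceeded HxD by 671 ± 342 bp (limma adjusted p = 1). The difference of HxD from WT was -50.7 bp with lists of equal length (limma adjusted p = 0.981) and -318 bp at the start of Grik5 (limma adjusted p = 0.850), 62520 bp from the marked end. Grik1 followed the same order in its means, with 1503, 2476 and 2380 bp in KO, 1540, 1142 and 1402 bp in HxD, and 2494, 1688 and 2298 bp in WT libraries. Its HxD minus WT difference was -799 ± 351 bp (limma adjusted p = 0.436) and its KO minus HxD difference 758 ± 351 bp (limma adjusted p = 1). Grik3 had 2156, 3520 and 3234 bp in KO, 2105, 2614 and 1967 bp in HxD, and 2629, 4234 and 3204 bp in WT libraries, with HxD below WT by a margin of 15 bp (-1127 ± 481 bp; limma adjusted p = 0.419). At Grik4, KO libraries (2862 to 3089 bp) lay above HxD libraries (2120 to 2831 bp) by 542 ± 460 bp (limma adjusted p = 1), and WT libraries spanned 2594 to 4359 bp.

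None of the 3 Shank scaffolds met the unadjusted threshold in a comparison. Shank2 had 2597, 2702 and 2382 bp in KO, 2172, 2179 and 2417 bp in HxD, and 2192, 2372 and 2366 bp in WT libraries. It was the only one of the 36 genes with all KO libraries above all WT libraries, by a margin of 10 bp, and its difference of 250.3 ± 313 bp was smaller than its SE (limma adjusted p = 0.752). Shank3, deleted in a human autism-related syndrome (chromosome 15, 89493013 to 89560261), had 2050, 2938 and 2662 bp in KO, 2896, 1124 and 3213 bp in HxD, and 2959, 3023 and 3363 bp in WT libraries. KO lay below WT without overlap, by 21 bp between the nearest libraries (-565 ± 495 bp; limma adjusted p = 0.632). Shank3 met the filter through 3 WT libraries and 1 HxD library, with 0 KO libraries marked. Lower KO values at this end were thus favoured by its admission. Shank1 overlapped in every comparison.

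Among the genes of inhibitory transmission, Slc6a5 had a peak within 1 kb of its marked end in WT libraries alone. Slc6a5, the glycine transporter of glycinergic neurons (chromosome 7, 49906984 to 49963864), had 445, 2401 and 1278 bp in KO, 1671, 0 and 1812 bp in HxD, and 2792, 2062 and 2840 bp in WT libraries. KO replicate 2 exceeded WT replicate 2, while HxD did not overlap WT. No difference or adjusted p is given for it at this end, since it was admitted through the WT libraries. Its unadjusted p entered the counts against WT above, where counts without Slc6a5 are also given. Slc32a1, the vesicular transporter of GABA and glycine, had 676, 3104 and 3974 bp in KO, 3018, 2004 and 2984 bp in HxD, and 4287, 2908 and 4006 bp in WT libraries, which overlapped (-1149 ± 684 bp in KO; limma adjusted p = 0.466). This marked end is the far end of Slc32a1, 4989 bp from its start. At the start, HxD (3977, 2843 and 3873 bp) lay below WT (5013, 4118 and 4331 bp) without overlap. The difference there was -923 ± 725 bp (limma adjusted p = 0.732), and KO (1188, 3991 and 4642 bp) overlapped WT. The decarboxylases Gad1 and Gad2 overlapped in every comparison. Gad2, whose start holds an RE1-core match, was the broadest of the 36 genes, at 5544.7 ± 870 bp in KO, 4951 ± 810.1 bp in HxD and 5422 ± 559 bp in WT libraries (SD, n = 3 each).

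At the GABA receptor subunits Gabra2 and Gabrb1 all KO libraries lay above all HxD libraries, as at 7.19% of all genes, and limma called neither. Gabrb1 (chromosome 5, 71657921 to 72149572) had 2389, 2369 and 2472 bp in KO, 2100, 1314 and 1342 bp in HxD, and 2425, 2496 and 2655 bp in WT libraries. Its KO libraries lay close to the WT libraries and above all HxD libraries (825 ± 325 bp; limma adjusted p = 1), and HxD lay below WT (-940 ± 325 bp; limma adjusted p = 0.313). The start of Gabra4, another GABA receptor subunit, lies 387 bp away and had the same covered length in each library. Gabra2 (chromosome 5, 70958392 to 71095849) had 2734, 2409 and 2375 bp in KO, 2123, 1279 and 1532 bp in HxD, and 2448, 1423 and 2134 bp in WT libraries. KO lay above HxD by 861 ± 358 bp (limma adjusted p = 1) and overlapped WT. The glycine receptor subunit Glra1 overlapped in every comparison, with 0 to 1104 bp in KO, 571 to 1166 bp in HxD and 715 to 1207 bp in WT libraries.

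Set beside all genes of the same library, the median synapse gene was broader than the median gene in every library except HxD replicate 2, and the excess was larger in WT. Their median covered length exceeded the median of the 15996 genes by 208, 565 and 218 bp in the KO libraries, by 218.5, -27.5 and 234 bp in the HxD libraries and by 1016.5, 767 and 839 bp in the WT libraries. Every WT library lay above every mutant library. The members were named with results of these data known, so no test was made of this score. By distance, the coverage per gene within 1 kb of the marked end was 1164 ± 206 bp in KO, 1029 ± 114 bp in HxD and 1264 ± 102 bp in WT (SD, n = 3 each). Between 1 and 2 kb it was 610.5 ± 124 bp in KO, 594 ± 98.6 bp in HxD and 789.9 ± 68.0 bp in WT. Over all genes tested the same distance held 422 ± 105 bp in KO, 358 ± 71.0 bp in HxD and 417 ± 63.2 bp in WT.

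**Figure D3:**
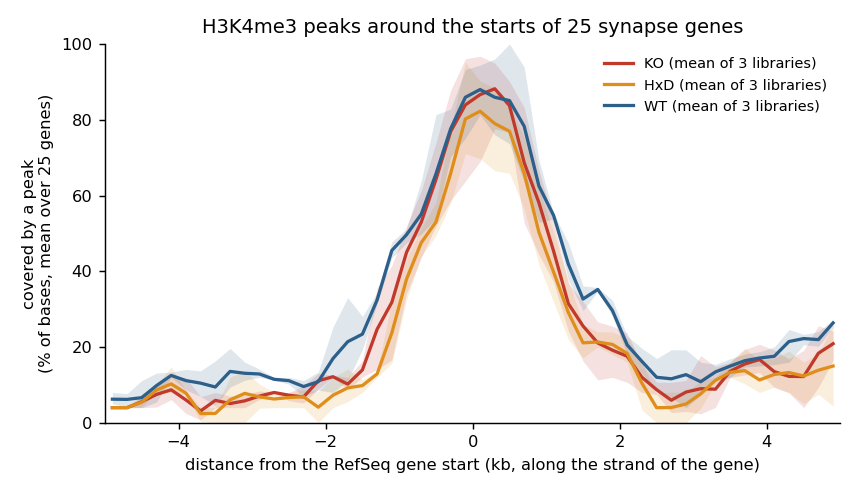
Share of bases covered by a peak (%, mean over the 25 synapse genes with a RefSeq start) in 200 bp steps along the strand of the gene, as the mean of 3 libraries (line) and their range (band). The 3 genotypes overlap at the start, and at 1600 to 1800 bp past it coverage was 11.3% to 26.6% in KO and 20.0% to 24.0% in HxD libraries, against 34.7% to 35.7% in WT libraries.

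For part of these genes the marked end is not the start from which they are transcribed, since the RefSeq gene table used for the ends gives no strand. Of the 25 genes with a RefSeq start, 14 had it within 1 kb of the marked end, 3 at 1 to 2 kb, 2 at 2 to 5 kb and 6 over 5 kb away. The 6 were Grik5, Shank3, Grin2d, Grin1, Slc17a7 and Grin3b. At the starts themselves, differences were below 0 at 21 of 25 genes in KO (44.1% of 12592 genes tested) and at 25 of 25 in HxD (58.5%). limma called 0 of 25 in either comparison (0.0318% of genes were narrower and 0.00794% broader in KO, and 0% in HxD). At an unadjusted p below 0.05, 4 of 25 were narrower in KO (Grik2, Grin2c, Grm2 and Slc17a8; 6.49% of genes) and 9 of 25 in HxD (8.03% of genes).

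The CpG-rich start of Shank3 shown above had 2398, 2905 and 2891 bp in KO, 2976, 2947 and 2718 bp in HxD, and 2677, 2764 and 3286 bp in WT libraries. These overlap, with a KO minus WT difference of -178 ± 357 bp (limma adjusted p = 0.867), so the absence of a Shank3 promoter peak counted in KO applies to the far end of the gene, 60653 bp away. At the start of Slc17a7, the values were 1570, 3297 and 2337 bp in KO, 3310, 1683 and 1761 bp in HxD, and 4009, 1556 and 3566 bp in WT libraries, and the groups overlapped (-642 ± 635 bp in KO; limma adjusted p = 0.679). The large difference at Slc17a7 likewise belongs to its far end, 12218 bp from its start. At the start of Slc6a5, 4716 bp from the marked end, the mark was broad, with 2677, 5235 and 3837 bp in KO, 4053, 1203 and 4385 bp in HxD, and 5120, 4735 and 5853 bp in WT libraries (-2022 ± 804 bp in HxD; limma adjusted p = 0.421). Grin2c, Grm2 and Slc17a8 have their start at most 54 bp from the marked end, so their values stand for the start. Grm5 has no start in the table used here.

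**Figure D4:**
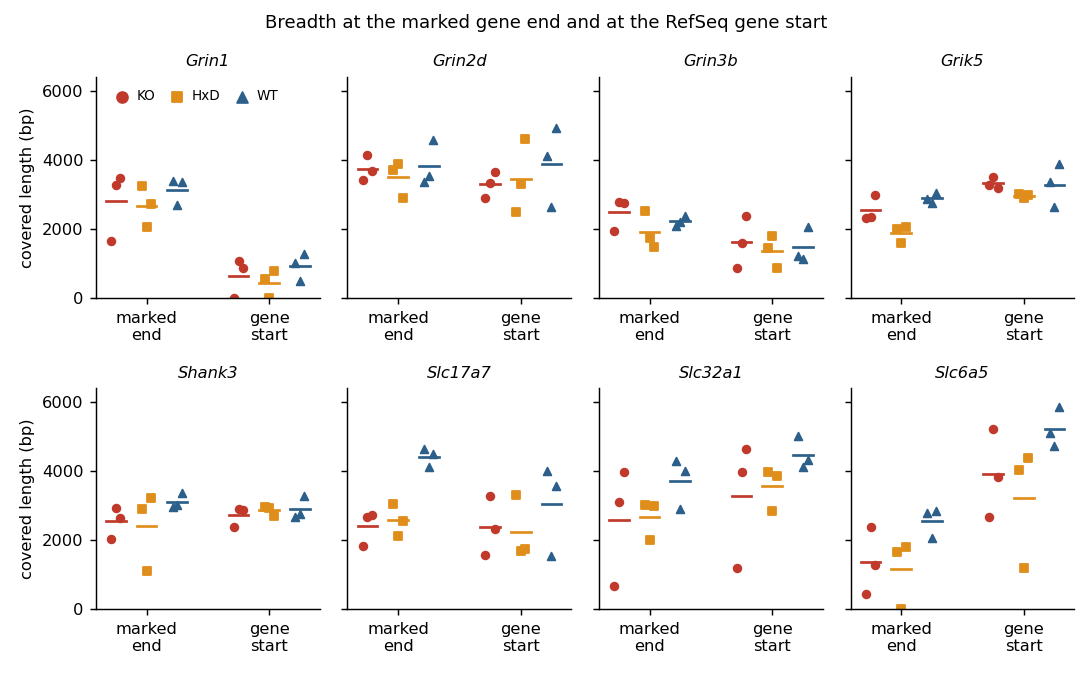
Covered length (bp within 5 kb) at the marked gene end and at the RefSeq gene start for the 8 synapse genes whose start lies more than 4 kb from the marked end, with 1 point per library and a bar at the mean of 3. At Slc17a7 the WT points stand clear of both mutants at the marked end and overlap them at the start.

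Inside these genes, more than 5 kb from both ends, H3K4me3 coverage was lower in both mutants than in WT. This measure was added after the data had been seen, and the genes named for it were chosen by their values. The inner bodies of 34 genes, 8.47 Mb in all, were covered over 0.821%, 1.19% and 0.967% in the KO libraries, 1.04%, 0.615% and 0.897% in the HxD libraries and 1.55%, 1.40% and 2.26% in the WT libraries. Over 13955 coding genes the same share was 1.09% to 1.56% in KO, 0.854% to 1.39% in HxD and 1.52% to 2.38% in WT. The ratio of synapse genes to all genes was 0.656 to 0.765 in KO, 0.720 to 0.890 in HxD and 0.908 to 0.951 in WT libraries, so that the WT libraries stood above all 6 mutant libraries. With lists of equal length this ratio was 0.633 to 0.747 in KO, 0.679 to 0.899 in HxD and 0.940 to 0.973 in WT.

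**Figure D5:**
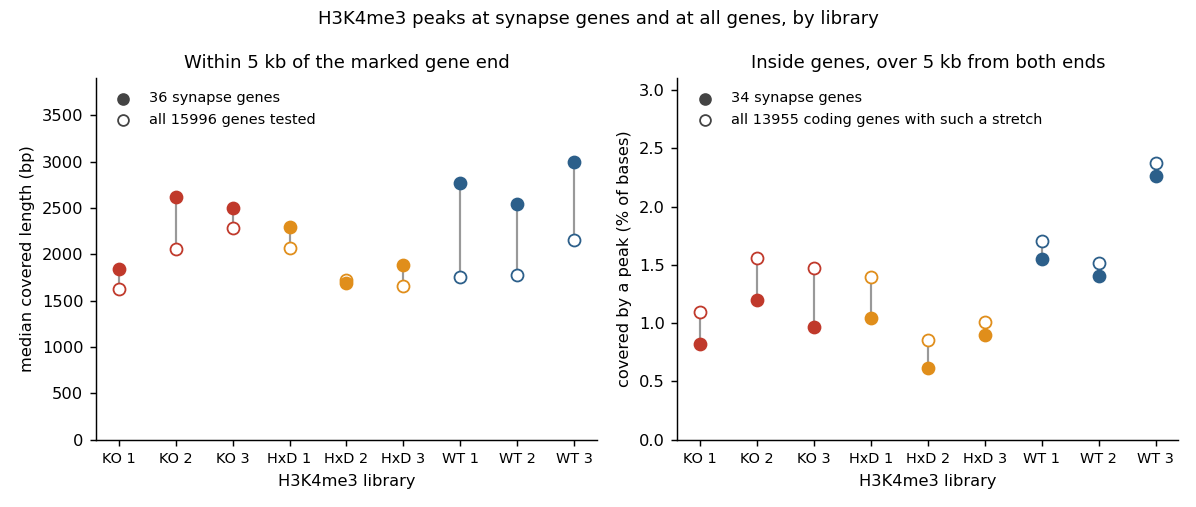
Left, median covered length (bp) within 5 kb of the marked end for the 36 synapse genes (filled) and for all 15996 genes tested (open) in each library. Right, share of bases covered (%) inside genes beyond 5 kb of both ends for 34 synapse genes (filled) and 13955 coding genes (open). On the left the filled point stands farthest above the open one in the WT libraries, and on the right the filled point lies at 0.656 to 0.765 of the open one in KO and 0.720 to 0.890 in HxD, against 0.908 to 0.951 in WT.

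Grik2 held the largest amount of such coverage in WT, with 5594, 6169 and 3457 bp in KO, 7210, 1104 and 7213 bp in HxD, and 13760, 15670 and 23675 bp in WT libraries over an inner body of 686 kb. Grm8 came next, with 3954, 9466 and 5357 bp in KO, 5349, 3792 and 6998 bp in HxD, and 13111, 13411 and 22485 bp in WT libraries. At both genes the lowest WT library exceeded the highest mutant library. Gria4 had 1228, 0 and 381 bp in KO, 575, 0 and 494 bp in HxD, and 2716, 2888 and 6447 bp in WT libraries. Shank3, in contrast, had overlapping values in all genotypes (6550.3 ± 1135 bp in KO, 6675 ± 479 bp in HxD and 6858 ± 579 bp in WT; SD, n = 3 each), and its own start lies inside this stretch.

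Among the 33 genes with any covered base in the inner body, KO lay below WT without overlap at 11 (12.5% of 9513 coding genes) and above it at 0 (2.54%). HxD lay below WT at 18 of 33 (19.8%) and above it at 0 (0.347%). KO lay below HxD at Grm5 alone (0.442%) and above it at 4 (7.87%). With lists of equal length the counts below WT were 9 in KO (9.13% of 6848 genes) and 11 in HxD (11%), and KO lay above HxD at 1 (4.48%). The 11 genes in KO were 17 without KO replicate 2 (20% of 9513 genes) or without WT replicate 2 (22.5%). The 33 synapse genes are long, with a median inner body of 127 kb against 38.4 kb over the 9513 genes, and the part of gene length in these counts was not tested.

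Other gene lists give the setting. Among all 15996 genes tested, 46.7% of differences from WT were below 0 in KO and 61.1% in HxD. At an unadjusted p below 0.05, 7.45% were narrower in KO and 9.04% in HxD. Of 60 other genes of glutamate and inhibitory synapses that were tested, differences from WT were below 0 at 46 in KO and 51 in HxD, and 10 in each were narrower at an unadjusted p below 0.05. Of 37 other neurotransmitter receptor and transporter genes, differences were below 0 at 33 in KO and at 33 in HxD, and 7 in each were narrower at an unadjusted p. For 27 presynaptic vesicle genes the counts below 0 were 21 in KO and 21 in HxD. Of 32 housekeeping genes, differences were below 0 at 6 in KO and 11 in HxD, and of 20 germ cell markers at 6 in KO and 10 in HxD. None of these genes was called by limma at an adjusted p below 0.05. By the naming rule, the smallest p-values in KO against WT belonged to the serotonin receptor gene Htr1a (-1384 ± 370.2 bp), the GABA receptor subunit gene Gabrd (-950 ± 287 bp) and Htr2a (-1761 ± 538 bp; limma adjusted p = 0.145, 0.171 and 0.175). In HxD against WT they included those of the synaptotagmin gene Syt4 (-964 ± 276 bp; limma adjusted p = 0.228) and the muscarinic receptor gene Chrm1 (-1440 ± 436 bp; limma adjusted p = 0.252). In KO against HxD they belonged to the germ cell gene Dppa3 (1454 ± 470.4 bp), Chrm1 (1153 ± 436 bp) and Gabra4 (825 ± 325 bp; limma adjusted p = 1 each).

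Most tested markers of other cells also had differences below 0, where 46.7% of all genes in KO and 61.1% in HxD did. Of 11 tested markers of nerve and glia, differences from WT were below 0 at 9 in KO and 10 in HxD, and their summed covered length was 21720 to 31382 bp in KO, 20275 to 30895 bp in HxD and 31593 to 34571 bp in WT libraries. Of 14 Sertoli markers, differences were below 0 at 11 in KO and 12 in HxD (summed 33645 to 51649 bp in KO, 34297 to 49929 bp in HxD and 48866 to 54971 bp in WT). Of 11 Leydig and interstitial markers they were below 0 at 9 in KO and 10 in HxD (summed 18192 to 32573 bp in KO, 23188 to 33703 bp in HxD and 29215 to 43051 bp in WT), with Cyp17a1 and Hsd3b1 at 0 in all libraries. Of 6 endothelial and blood markers they were below 0 at 5 in KO and 4 in HxD (summed 8304 to 14976 bp in KO, 11597 to 14151 bp in HxD and 14023 to 19263 bp in WT), with Ptprc, Adgre1, Csf1r and Gata1 at 0 in all libraries. The part of other cells and of list length in the values of the synapse genes was not tested.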

How the data were processed

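The peaks of 9 H3K4me3 CUT&RUN libraries were analysed and the 9 IgG libraries left aside. The submitters' processing notes name MACS2 2.1.0, deepTools 3.5.1, Bowtie2 2.5.0, bedtools 2.27.1, Trim Galore, SAMtools 1.16.1 and build mm10. These sources do not say what each tool did or which control the peak calls had. The deposited files are narrow peak lists, 1 per library, in which the authors give each peak a score, a fold enrichment as a linear ratio, and p and q as −log10 values; the comparisons used the −log10 q values, with fold for ties, to rank and filter peaks within a list. The smallest deposited −log10 q was 2.00 to 2.02.

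Overlapping peaks of a library were merged, on chromosomes 1 to 19, X and Y. Covered bp within 5 kb of the marked gene end were fitted by limma 3.58.1 (R 4.3.3) on all 9 libraries with genotype as the only term, eBayes with trend, and Benjamini-Hochberg adjustment over 15996 genes at a threshold of 0.05. The script was tested on simulated data. Counts without genes marked in 1 genotype only, fits without both least covered lists, and gene starts with lists of equal length were chosen after seeing the data. Peak numbers and medians of libraries were compared with exact permutation tests (two-sided). The replicates are biological per the labels. The source of each, such as a litter, is not given, so p-values measure the spread between these samples.

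A gene was named with statistics where its unadjusted p was below 0.05, or where the groups did not overlap and differed by at least 500 bp; Shank2 was named outside this rule, after its values were seen. The genes and lists were chosen with earlier results of these data known. Of the other lists, the genes with the 3 smallest p-values per comparison were to be named; some results that this rule covers are not reported here. Coordinates are mm10 and 1-based. Promoters come from RefSeq GRCm38.p6, where Glra1, Gria1, Grid1, Grik1, Grin2a, Grin2b, Grin3a, Grm4, Grm5, Shank1 and Shank2 had no entry. Other steps used Python 3.11.15, numpy 2.4.6, pandas 2.3.3, scipy 1.17.1 and matplotlib 3.10.9.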

Additional observations from a re-analysis of the deposited data

How the results depend on the processing

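The number of peaks differed by genotype and the reads behind them are unknown, so a shorter covered length cannot be told apart from a shorter list. The 26 differences of synapse genes that met the naming rule kept their direction under the alternatives that could be run for each (Grm5 and Grik1 have no RefSeq gene start, and Slc6a5 was not tested with lists of equal length), except Grm2 with lists of equal length, at the marked end and at the RefSeq gene start, where it was 218 bp in KO minus WT and 338 bp in HxD minus WT; the cause was not tested. Both differences of Slc6a5 from WT are among the 26, although lower mutant values were built into its admission. The sizes of the differences moved more. A 2 kb window, which holds fewer bases, brought Grin2c to -800 bp in KO and -210.3 bp in HxD, Slc17a6 to -605 bp and Grik5 to -306 bp in HxD. Without KO replicate 1, Slc17a8 was at -593 bp and Shank3 at -315 bp in KO. Without HxD replicate 2, Slc17a8 was at -414 bp in HxD; without WT replicate 2, Grik3 was at -688 bp in HxD; and without WT replicate 3, Grm2 was at -460.3 bp in KO and -448 bp in HxD. At the RefSeq gene start with lists of equal length, Slc17a7 was at -353 bp in KO and -326 bp in HxD. Differences under the alternatives are not given here for the genes of other lists or for Shank2. With lists of equal length KO still lay above WT without overlap at Shank2. With centred libraries or a 2 kb window it no longer did. Of the 9 same-numbered pairs of libraries, 0 had a correlation of deviations over 0.1 (-0.236 to 0.0798). Those of KO with HxD were at -0.236, -0.187 and -0.184, and unlike-numbered pairs reached 0.175. Deviations within 3 libraries depend on each other, so this check cannot settle whether replicate numbers pair the libraries. With the replicate block, 6 of the 36 genes in KO (6.69% of all genes) and 11 in HxD (7.75%) were narrower than WT at an unadjusted p, 0 were called, and 0 of all genes were called narrower in KO.

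Synapse genes called narrower at an adjusted p by limma numbered 3 in KO and 2 in HxD with centred libraries, 2 in KO alone with lists of equal length, 2 in KO (0.585% of all genes) and 1 in HxD (0.532%) without the filter, and 1 and 0 at the gene start with lists of equal length. Over all genes, calls of narrower in KO numbered 281 with centred libraries, 36 with lists of equal length, 110 without the filter, 4 at the gene start, 22 at the gene start with lists of equal length, and 0 with stricter peaks (−log10 q of at least 5), a 2 kb window or both least covered lists (KO replicate 1 and HxD replicate 2) left out. Calls of broader in KO numbered 183, 363, 8, 1 and 352 in the first 5 of these settings. In HxD, calls of narrower numbered 43 with centred libraries and 100 without the filter, and calls of broader 12 with centred libraries, 2 with lists of equal length, 2 without the filter and 7 at the gene start with lists of equal length.

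The share of all genes called in the same setting stands in brackets, save for counts of peaks present or absent, where it was not counted. Synapse genes narrower at an unadjusted p in KO numbered 3 with both least covered lists left out (4.01%) and 2 of 25 at the gene start with lists of equal length (2.9%), and 1 was broader with lists of equal length at the marked end (16.8%) and 1 at the start (17.8%). In HxD the narrower genes numbered 4 with lists of equal length at the marked end (3.2%) and 4 at the start (2.94%), 8 with a 2 kb window (7.12%) and 8 with both least covered lists left out (5.41%). Genes broader in KO than in HxD numbered 1 with lists of equal length at the marked end (1.39%) and 1 at the start (1.37%) and 1 with a 2 kb window (2.37%), and 1 was narrower with centred libraries (1.78%). At the gene start with lists of equal length, 17 genes in KO (29.3%) and 22 in HxD (36.9%) were below 0, and 2 in KO (4.61%) and 6 in HxD (6.64%) lay below WT without overlap. Genes with KO above WT without overlap numbered 0 with a 2 kb window (9.26%), centred libraries (10.7%) or the gene start (9.16%, and 16.4% with lists of equal length) and 2 with both least covered lists left out (23.7%). In KO minus HxD, 16 genes were below 0 (51.9%) and 1 lay below without overlap (5.21%) with centred libraries, and 16 lay above with both least covered lists left out (32.8%). Genes with a peak in every WT and no KO library numbered 1 with lists of equal length and 0 at the gene start, with full lists or lists of equal length. In no HxD library they numbered 2 with lists of equal length, 3 with stricter peaks and 0 at the gene start, with full lists or lists of equal length. In all 9 libraries they numbered 13 of 25 at the gene start with lists of equal length. Without the share of all genes, these counts of peaks present or absent show nothing particular to the synapse genes. Inner gene bodies with HxD below WT numbered 11 with lists of equal length (11%). Bodies with KO above HxD numbered 1 with lists of equal length (4.48%) or stricter peaks (4.2%) and 9 with both least covered lists left out (21.1%), when 7 lay below (3.46%). The ratio of stricter peaks was 0.655 for KO over WT and 1.09 for KO over HxD.

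Leaving out 1 library at a time, genes called narrower ranged over 0 to 2 in KO and 0 to 22 in HxD, genes called broader over 0 to 3 in KO and 0 to 3 in HxD, and synapse genes called in HxD over 0 to 1. Synapse genes narrower at an unadjusted p ranged over 3 to 9 in KO (4.07% to 8.35% of all genes) and 7 to 15 in HxD (4.34% to 11.5%). Slc6a5 was kept in these counts, as in those with the replicate block. Those below WT without overlap ranged over 6 to 14 in KO (9.08% to 16.1% of all genes) and 12 to 21 in HxD (13.3% to 27.7%). Those above WT ranged over 1 to 2 in KO (8.49% to 23.7%). In KO minus HxD, 0 to 7 were broader (0.906% to 7.96% of all genes) and 0 to 1 narrower (0.0875% to 0.581%) at an unadjusted p. Differences were below 0 at 3 to 15 (13.2% to 45.9%). Without overlap, 4 to 16 lay above (7.19% to 29%) and 0 to 1 below (0.706% to 4.54%). Inner bodies below WT in KO ranged over 11 to 17 (12.5% to 22.5% of 9513 genes). In KO minus HxD, 4 to 7 lay above (7.87% to 19.6%) and 1 to 5 below (0.442% to 2.69%). Ratios of peak number ranged over 0.660 to 0.827 for KO over WT and 1.14 to 1.32 for KO over HxD.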
